A study of Rattus norvegicus with 16 samples.

Results

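The left kidneys of 8 rats were compared between rats numbered 1 to 4 and rats numbered 5 to 8. These 8 left kidney arrays were 8 of the 16 arrays in the study, 4 a side, and they were taken by the side and the rat number in the array titles. No label names a difference between rats 1 to 4 and rats 5 to 8. The split was chosen by the measured signals themselves, as the largest difference between the arrays, so the differences below are a description with no test, and nothing rests on their size.

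Both kidneys of each rat were measured, 1 array per kidney. The right kidney of a rat was given ACTH, DEX or saline, and its left kidney was the control. DEX is the label's abbreviation and is not expanded there. Rats 1 to 4 comprised ACTH rat 1, DEX rat 3 and saline rats 2 and 4, and rats 5 to 8 comprised ACTH rat 5, DEX rat 7 and saline rats 6 and 8. The left kidneys of both sets therefore came from 1 ACTH, 1 DEX and 2 saline rats each. The series text speaks of 2 rats per treatment, whereas the titles give 4 saline rats, and the titles were followed. Strain, sex, age, dose, route, duration and the time of day of collection are not given in the labels, nor is whether an agent given to the right kidney reached the left one.

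The kidney is built from nephron segments with distinct tasks. The proximal tubule recovers most of the filtered solutes, the thick ascending limb takes up salt and secretes uromodulin, and the distal and connecting tubules fine-tune sodium, potassium and calcium. An oligonucleotide array reads a transcript through 1 or more probe sets, which may sit at different places along it, and it also carries probe sets for transcripts of other organisms that serve as controls. In RNA of a whole kidney, fewer cells of a type and less RNA per cell cannot be told apart.

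Signals are on the authors' linear scale. Differences are log2(signal + 16) in rats 1 to 4 minus rats 5 to 8, and folds are on the same scale of signal + 16. The 2 sets are called apart where all 4 values of one set lie above all 4 of the other. The arrays had medians between 76.0 and 82.1. The samples were kidney by their markers, with Kap, a protein of the proximal tubule, at 3005 to 5391 and the uromodulin gene Umod at 1874 to 3260 in the 8 left kidneys. The adrenal enzyme gene Cyp11a1 read 84.6 to 119 and the liver gene Alb 46.9 to 83.5, near the array medians. Over 5244 probe sets, left kidneys of the same set correlated with a Pearson r of 0.969 to 0.983 within rats 1 to 4 and 0.977 to 0.986 within rats 5 to 8, whereas the 16 pairs across the sets gave 0.935 to 0.956. These correlations are across probe sets of arrays that share a design and are descriptive.

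Across the tested probe sets, 1876 of 5244 (35.8%) were apart in the left kidneys, 850 of them higher in rats 1 to 4 (16.2%) and 1026 lower (19.6%). With a difference of at least 2-fold as well, 71 remained (1.35%), 46 higher in rats 1 to 4 (0.877%) and 25 lower (0.477%). The first principal component of the left arrays took 54.0% of the variance and separated the sets. With each gene represented by its brightest probe set, 1111 of 3193 genes were apart (34.8%), 514 higher (16.1%) and 597 lower (18.7%), and 31 of them were at least 2-fold apart (0.971%), 17 higher (0.532%) and 14 lower (0.438%). The median difference over the genes was -0.03, and of the 3193 genes 1483 had a positive and 1710 a negative difference. These shares are the background for each count of genes below, and since the same values chose the split, nothing is read from them.

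Among genes higher in rats 1 to 4, the largest difference was in Gatm, which makes guanidinoacetate, the precursor of creatine, in the kidney. Its signal was 817, 944, 850 and 961 in rats 1 to 4, against 246, 288, 320 and 228 in rats 5 to 8. All 4 values of rats 1 to 4 lay far above those of rats 5 to 8. The mean signals were 893 ± 70.5 and 271 ± 41.5 (SD, n = 4 each), a fold of 3.19.

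Selenop encodes selenoprotein P, a carrier of selenium. It read 751, 764, 793 and 966 in rats 1 to 4, against 314, 292, 305 and 283 in rats 5 to 8, a difference of 1.40. All 4 values of rats 1 to 4 were high and those of rats 5 to 8 lay close together. Hnmt, which methylates histamine, gave 523, 397, 413 and 458 in rats 1 to 4, against 196, 140, 186 and 142 in rats 5 to 8, and its second probe set was apart in the same direction (0.78). Slc25a30, a mitochondrial carrier, read 443, 422, 437 and 445 in rats 1 to 4, against 217, 190, 162 and 104 in rats 5 to 8. Its 4 values in rats 1 to 4 were nearly equal, and rat 8 was the lowest of the other set.

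A pair of organic anion transporters were in this group. Slco1a1, which in rat is male-typical in kidney, read 356, 389, 302 and 355 in rats 1 to 4, against 168, 117, 141 and 134 in rats 5 to 8. Slco1a3 read 460, 403, 338 and 435 in rats 1 to 4, against 185, 176, 195 and 141 in rats 5 to 8. Neither transporter overlapped between the sets, with differences of 1.24 and 1.16. COX2, the mitochondrially encoded subunit 2 of cytochrome c oxidase, was among the brightest, at 2089, 2225, 2362 and 2036 in rats 1 to 4, against 1051, 789, 1107 and 918 in rats 5 to 8. Fabp6, a bile acid binding protein, was as bright, at 1676, 1666, 2100 and 2166 in rats 1 to 4, against 1005, 1022, 851 and 668 in rats 5 to 8.

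The other large positive differences were in Btd, the enzyme that frees biotin (1.34), the chromatin protein Hmga1 (1.23), Ivns1abp (1.18), Naca, a subunit of the complex that meets nascent proteins at the ribosome (1.17), the aldo-keto reductase AKR1C3l1 (1.11) and Bdh1, which interconverts ketone bodies (1.05). Hmga1 and AKR1C3l1 each had a second tested probe set that did not follow, at -0.19 with overlap for Hmga1 and at -0.31, apart and lower in rats 1 to 4, for AKR1C3l1. The next gene beyond the 15 named had a difference of 1.03.

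**Figure D1:**
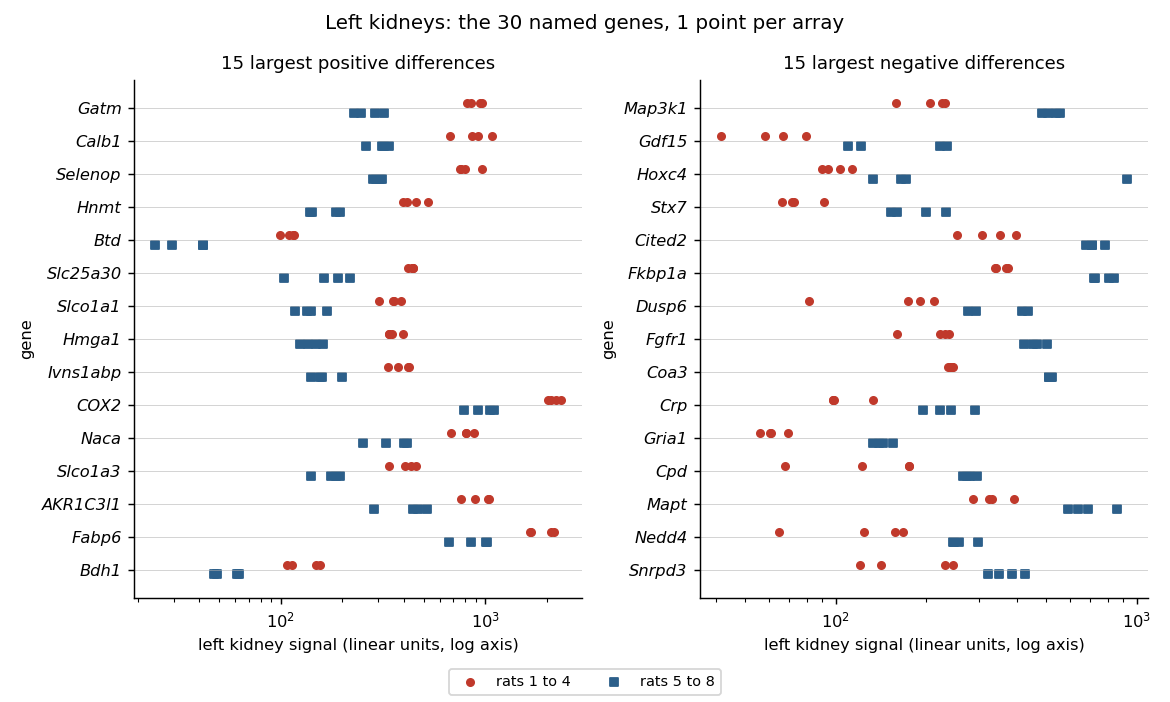
Left kidney signal (linear units, log axis) of the 15 genes with the largest positive and the 15 with the largest negative differences among genes whose sets do not overlap, 1 point per array, with rats 1 to 4 as circles above rats 5 to 8 as squares. Gatm reads 817 to 961 in rats 1 to 4 and 228 to 320 in rats 5 to 8, Map3k1 159 to 230 and 484 to 558, and Hoxc4 in rat 8 stands alone at 932.

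Among genes lower in rats 1 to 4, the largest difference was in Map3k1, a kinase upstream of the JNK pathway. It read 226, 206, 230 and 159 in rats 1 to 4, against 538, 507, 484 and 558 in rats 5 to 8, a difference of -1.29. A second probe set was apart the same way (-0.93) and the last was apart the other way (0.27). Gdf15, a stress-induced member of the TGF-beta family, read 79.6, 58.1, 67.0 and 41.5 in rats 1 to 4, against 235, 122, 110 and 222 in rats 5 to 8. Rats 6 and 7 were the lower ones in the second set, still above all of rats 1 to 4.

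Coa3, an assembly factor of cytochrome c oxidase, had the tightest values of the group: 243, 240, 245 and 236 in rats 1 to 4, against 518, 512, 510 and 524 in rats 5 to 8. The 2 clusters were each narrow and the difference was -1.05. Cited2, a transcriptional co-regulator induced by hypoxia, read 307, 351, 396 and 252 in rats 1 to 4, against 681, 712, 713 and 784 in rats 5 to 8. All 3 of its probe sets were lower in rats 1 to 4, and 2 of them were apart. Fkbp1a, the binding protein of tacrolimus, read 373, 341, 337 and 369 in rats 1 to 4, against 843, 807, 725 and 720 in rats 5 to 8, and 3 of its 4 probe sets were apart the same way.

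Dusp6, the phosphatase that switches off ERK, read 174, 81.2, 213 and 190 in rats 1 to 4, against 276, 414, 293 and 435 in rats 5 to 8, and its second probe set gave -0.84. The receptor Fgfr1 read 231, 223, 238 and 159 in rats 1 to 4, against 422, 451, 465 and 505 in rats 5 to 8. Both genes were without overlap in both of their probe sets. Nedd4, a ubiquitin ligase, read 158, 65.0, 167 and 124 in rats 1 to 4, against 257, 298, 246 and 246 in rats 5 to 8. Cpd, a carboxypeptidase, read 176, 67.7, 175 and 123 in rats 1 to 4, against 279, 274, 294 and 264 in rats 5 to 8. Rat 2 was the lowest of the 8 for Nedd4, Cpd and Dusp6.

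The remaining negative differences were in Hoxc4 (-1.18), the endosomal syntaxin Stx7 (-1.13), a probe set annotated as Crp (-1.04) and the glutamate receptor subunit Gria1 (-1.03). The microtubule protein gene Mapt (-1.02) and the spliceosome protein gene Snrpd3 (-0.99) completed them. A second probe set annotated as Crp overlapped, at -0.71. Whether either probe set measures Crp was not checked. Hoxc4, a homeobox gene, read 94.5, 113, 104 and 90.2 in rats 1 to 4, against 171, 165, 133 and 932 in rats 5 to 8, and without rat 8 the difference was -0.56. A second Mapt probe set was apart and higher in rats 1 to 4 (0.63). The sixteenth gene was equal to Snrpd3 at 2 decimals, at -0.99.

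Many of these differences belonged to 1 probe set of a gene. Of the 71 probe sets at least 2-fold apart, 59 had 1 gene symbol, and 31 of these were the brightest probe set of their gene. The other 28, from 27 genes, had a brighter probe set for the same gene. That brighter probe set was apart in the same direction in 7 of the 28, apart in the opposite direction in 2, of Glul and Mep1a, and overlapping in 19. The difference of 1.09 in the dimmer probe set of Mep1a, a brush border protease, rests on rat 7, which read 40.1, against 446 to 512 in the other rats 5 to 8, and was 0.31 without it. Of the 31 genes, 20 had only 1 tested probe set and could not be set against another.

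Gclm, the modifier subunit of the enzyme that starts glutathione synthesis, illustrates this. One of its probe sets read 443, 474, 391 and 476 in rats 1 to 4, against 92.9, 90.6, 114 and 59.8 in rats 5 to 8, a difference of 2.15. A second probe set gave 1.10, and the brightest of the 3 gave -0.02 with overlap. For Glul, glutamine synthetase, a probe set that read 741, 844, 822 and 906 in rats 1 to 4, against 257, 310, 274 and 169 in rats 5 to 8, differed by 1.68, while the brightest probe set was apart and lower at -0.20 and the other 2 were apart and higher (0.50 and 0.55). The most different and the brightest probe set of Egf differed by 1.22 and -0.10, of Psma2, a proteasome subunit, by 1.55 and -0.38, and of Jun by -1.29 and -0.04.

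Other genes shared a direction across probe sets, though not always a size. Cat, which encodes catalase, read 711, 650, 835 and 1019 in rats 1 to 4, against 257, 207, 182 and 185 in rats 5 to 8 in a probe set with a difference of 1.86, and its brighter probe set was apart at 0.86. Pdhb, a subunit of pyruvate dehydrogenase, gave 1.83 and 0.99, Aadat, an aminotransferase of tryptophan breakdown, 1.42 and 0.95, and the mitochondrial chaperone gene Hspe1 1.02 and 0.89. Nfkbia, the inhibitor of NF-kappa-B, gave -1.02 and -0.92. In these 5 genes both values of a pair were apart in the same direction. So were those of Kcnj1 (1.18 and 0.37) and Tpm3 (-1.07 and -0.30), with a much smaller difference in the brightest probe set.

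**Figure D2:**
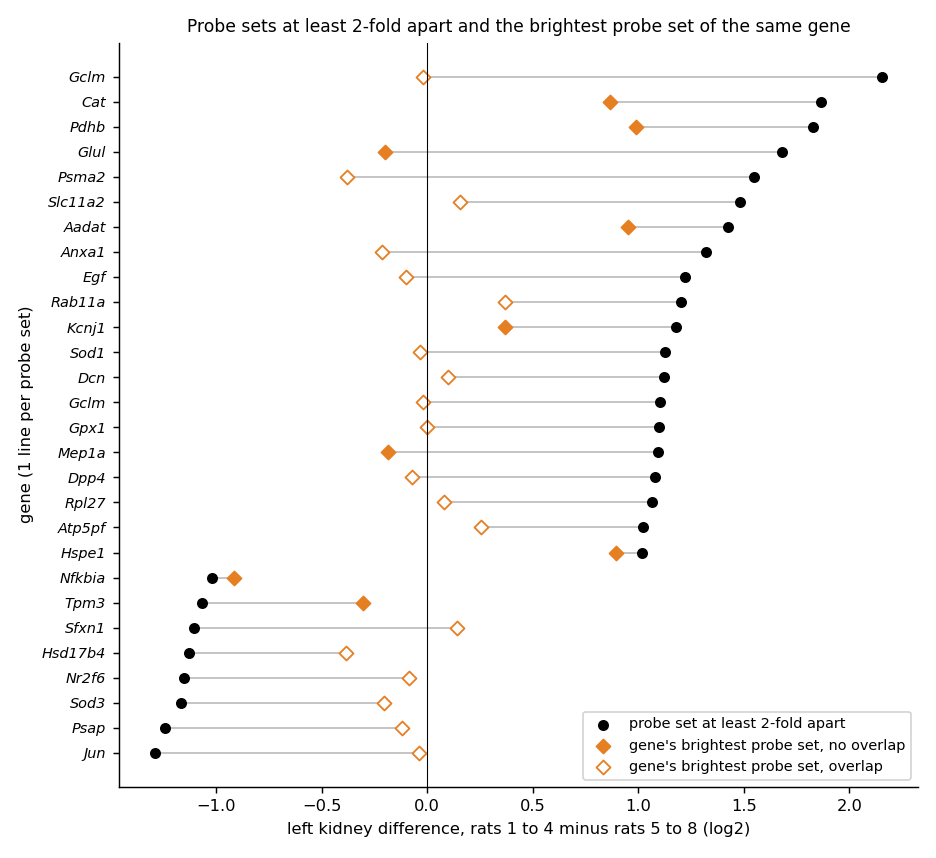
Left kidney difference, rats 1 to 4 minus rats 5 to 8 (log2), of the 28 probe sets that were at least 2-fold apart but not the brightest of their gene (black points), joined to the brightest probe set of the same gene (diamonds, filled where the sets do not overlap). Of the diamonds, 19 are open, and those of Glul and Mep1a are filled on the other side of 0, where the Mep1a point rests on rat 7.

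Across the array, 933 genes had more than 1 tested probe set, and 194 had at least 2 that were apart. In 63 of these 194 (32.5%) the probe sets were apart in opposite directions. Pairs of probe sets drawn from a single sequence record, named alike but for a g, numbered 561. Both members were apart in 93 pairs, in the same direction in 74 and in opposite directions in 19 (20.4%). Over the 561 pairs the 2 differences had a Pearson r of 0.34, a description across probe sets of the same arrays.

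Calb1, the calcium buffer of the distal and connecting tubule, was split in this way. The probe set that stands for it read 1083, 862, 675 and 918 in rats 1 to 4, against 261, 321, 339 and 313 in rats 5 to 8, a difference of 1.46. Its partner from the same record, which the annotation leaves without a symbol, read 125, 110, 99.9 and 112 in rats 1 to 4, against 146, 147, 155 and 154 in rats 5 to 8. The sets did not overlap in either probe set, in opposite directions. Pairs of the peroxisomal enzyme Hsd17b4 (-0.58 and 0.78), the antiproliferative gene Btg1 (-0.40 and 0.94), and Cth, which makes cysteine (-0.68 and 0.55), behaved likewise.

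Pathway lists held genes on both sides. Of 53 measured genes of oxidative phosphorylation, 3 were apart and higher in rats 1 to 4 and 13 apart and lower, with a median of -0.16. Complex I genes, the assembly factor Ndufaf3 included, made up 9 of the lower ones, led by Ndufab1, the acyl carrier protein of the mitochondrion, at -0.76. The other Ndufab1 probe sets overlapped, at -0.20 and -0.28. Atp5pb and Atp5f1c, subunits of ATP synthase, were higher at 0.72 and 0.62. Of 31 proteasome and ubiquitin genes, 1 was apart and higher and 8 apart and lower (median -0.22). Psmc3, an ATPase of the proteasome cap, read 296, 376, 277 and 316 in rats 1 to 4, against 546, 639, 571 and 618 in rats 5 to 8, and Psmb5, a catalytic subunit, differed by -0.83. The last of its 3 probe sets overlapped.

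Of 36 cytosolic ribosomal protein genes, 7 were apart and higher and 9 apart and lower, with a median of -0.17. Rps27l (0.97), Rpl21 (0.90) and Rpl4 (0.76) stood at one end and Rps15 (-0.87), Rpl3 (-0.60) and Rpl36 (-0.60) at the other. The other Rpl21 probe sets all overlapped, at 0.46, 0.31 and 0.21. Of 17 splicing and RNA binding genes, 6 were apart and higher, led by Srsf11 at 0.96, and 2 apart and lower, with a median of 0.18. Of 21 genes of fatty acid oxidation, 3 were apart and higher and 5 apart and lower, among them Acads, the short-chain acyl-CoA dehydrogenase, at -0.87. Of 21 genes of gluconeogenesis and amino acid breakdown, 2 were apart and higher, Gatm and Glud1, and 6 apart and lower, with Gnmt, a glycine methyltransferase, at -0.47 and in all 3 probe sets lower and apart.

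Of the 12 measured hypoxia response genes, 6 were apart and lower and 1 was apart and higher (median -0.22). The lower ones were the glycolytic gene Aldoa (-0.69), the angiogenic factor gene Vegfa (-0.63), the oxygen-regulated factor gene Hif1a (-0.47), the vasodilator gene Adm (-0.46), the transferrin receptor gene Tfrc (-0.44) and the glucose transporter gene Slc2a1 (-0.24). The higher one was Hk2, at 0.38. Of 11 immediate early genes, which respond within minutes to stimuli and handling, 10 had negative differences and 2 were apart, Junb (-0.81) and Klf6 (-0.50).

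Egr1, an immediate early transcription factor gene, overlapped in its brightest probe set, which was uneven. It read 706, 331, 242 and 181 in rats 1 to 4, against 406, 1845, 343 and 915 in rats 5 to 8. Saline rats 6 and 8 were the high values, so the difference was -2.33 over the saline rats and 0.15 over the ACTH and DEX rats. A dimmer Egr1 probe set was apart and lower, at 93.8 to 111 in rats 1 to 4, against 123 to 190 in rats 5 to 8, a difference of -0.52 in the left and -0.53 in the right kidneys. Fos read 248 to 255 in rats 1 to 4, against 227 to 303 in rats 5 to 8, with overlap in its brightest probe set, and a second probe set was apart at -0.50.

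Among segment markers, the thick ascending limb had 3 of 6 genes apart and higher in rats 1 to 4 and none apart and lower. Slc12a1, the sodium-potassium-chloride cotransporter, read 173, 119, 147 and 161 in rats 1 to 4, against 80.3, 72.2, 77.5 and 74.1 in rats 5 to 8. Umod read 3117, 3260, 2723 and 3023 in rats 1 to 4, against 2398, 2048, 1874 and 2025 in rats 5 to 8. Neither gene overlapped, while Egf (-0.10), Casr (-0.51) and Ptger3 (0.02) of the same list did. Of the 16 genes of distal sodium and potassium transport, 7 were apart and higher, among them the sodium channel subunit gene Scnn1a (0.51) and the channel regulator gene Fxyd4 (0.71), and 1, the subunit gene Scnn1g (-0.32), apart and lower.

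The proximal tubule list gave 1 gene apart in each direction out of 16. Kap read 4276, 5391, 4754 and 5241 in rats 1 to 4, against 3617, 3005, 3751 and 3475 in rats 5 to 8, and Ggt1, the brush border glutamyltransferase, 2253, 2136, 1926 and 1937 in rats 1 to 4, against 3345, 3762, 3195 and 2862 in rats 5 to 8. The 2 genes thus lay apart in opposite directions, and the phosphate transporter gene Slc34a1 (-0.10) and the glucose transporter gene Slc5a2 (-0.07) overlapped. No gene was apart among 4 podocyte, 3 intercalated cell, 4 erythrocyte and 4 adrenal cortex markers. The leukocyte list had 8 of 8 positive differences but a median of 0.10, with 3 apart, Cd48 (0.71), Cd4 (0.30) and Cd8b (0.26). The glucocorticoid receptor gene Nr3c1 (-0.18), the corticosteroid-induced kinase gene Sgk1 (0.02), Hsd11b2, which inactivates glucocorticoids (0.12), and the steroid hydroxylase gene Cyp2c11 all overlapped in their brightest probe sets. Another Cyp2c11 probe set was apart and lower in rats 1 to 4 (-0.33), and a further one overlapped (-0.75).

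**Figure D3:**
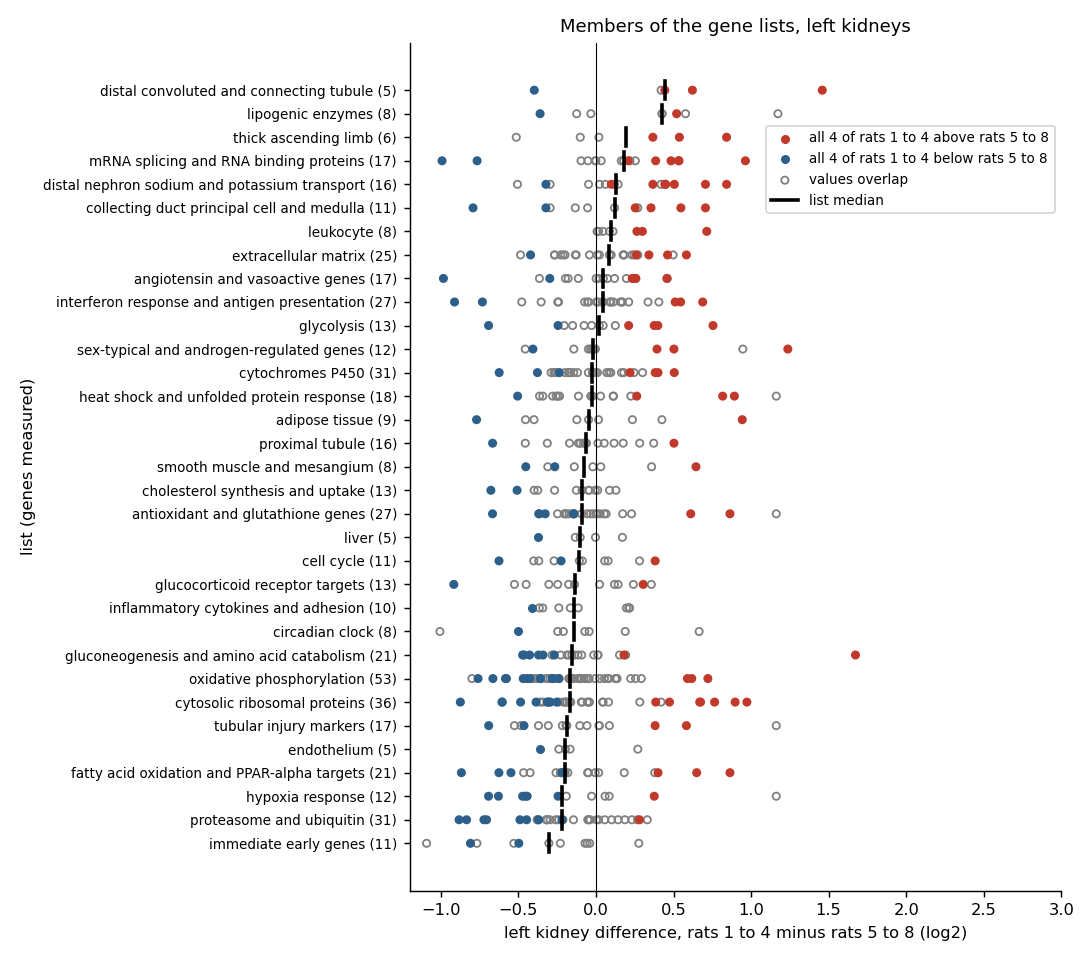
Left kidney difference, rats 1 to 4 minus rats 5 to 8 (log2), of every measured member of the lists with at least 5 measured genes, with the number of genes in brackets and the list median as a bar. Filled points are genes whose sets do not overlap. Ribosomal protein genes reach 0.97 and -0.87, and the medians lie between -0.30 for immediate early genes and 0.44 for the distal convoluted and connecting tubule.

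The control probe sets, which were not among the 5244, also differed between the sets. All 15 probe sets for transcripts of Bacillus subtilis (the genes dap, lys, phe, thr and trp, which are commonly added to the RNA before labelling) were apart and lower in rats 1 to 4, in the left and in the right kidneys, where 35 of all 59 control probe sets (59.3%) were apart in the left, 2 higher (3.39%) and 33 lower (55.9%). The dap probe set at the 3' end read 13.7, 14.5, 16.5 and 15.2 in the left kidneys of rats 1 to 4, against 266, 272, 216 and 131 in those of rats 5 to 8. In the right kidneys it read 14.7, 15.2, 14.1 and 14.6 in rats 1 to 4, against 500, 230, 146 and 97.8 in rats 5 to 8. The rats 1 to 4 arrays all read it among the dimmest probe sets, and the rats 5 to 8 arrays were all well above them.

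The thr probe set at the 3' end showed the same order, at 32.6 to 40.3 in the left kidneys of rats 1 to 4, against 150 to 219 in those of rats 5 to 8. Of 9 probe sets for BioB, BioC, BioD and cre, which are commonly added at hybridisation, 8 were apart and lower in the left kidneys of rats 1 to 4 and none was apart in the right kidneys. The ratio of the 3' to the 5' probe set of Gapdh, a measure of how far labelled transcripts reach towards their 5' end, was 1.62, 1.90, 1.49 and 1.46 in the left kidneys of rats 1 to 4, against 1.16, 1.14, 1.20 and 1.14 in those of rats 5 to 8. The means were 1.62 ± 0.20 and 1.16 ± 0.03 (SD, n = 4 each). The right kidneys gave 1.38 ± 0.06 in rats 1 to 4 and 1.13 ± 0.07 in rats 5 to 8. For beta-actin the left values overlapped, with means of 1.60 ± 0.21 in rats 1 to 4 and 1.34 ± 0.08 in rats 5 to 8. Those of hexokinase overlapped too, at 2.04 ± 0.49 and 1.69 ± 0.11. In the right kidneys beta-actin gave 1.47 ± 0.04 in rats 1 to 4 and 1.33 ± 0.11 in rats 5 to 8. These values narrowly did not overlap, with a lowest of 1.430 in rats 1 to 4 and a highest of 1.427 in rats 5 to 8. Hexokinase gave 1.79 ± 0.27 and 1.71 ± 0.14 in the right kidneys, with overlap.

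**Figure D4:**
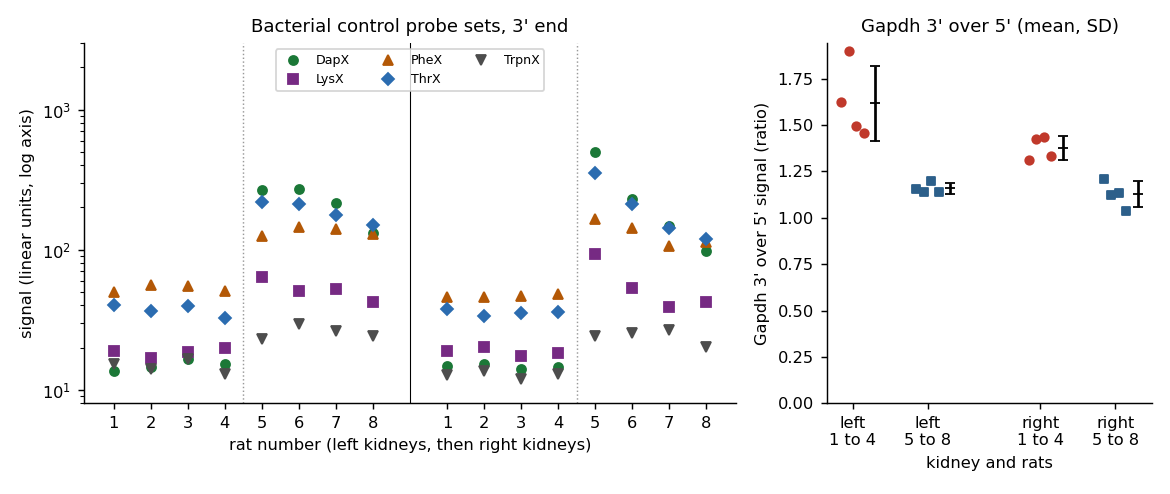
Left panel: signal (linear units, log axis) of the 3' probe sets of 5 Bacillus subtilis control transcripts on each array, left kidneys and then right kidneys, with rats 1 to 4 left of rats 5 to 8. Right panel: 3' over 5' signal ratio of Gapdh per array with mean and SD. DapX lies at 13.7 to 16.5 in the left kidneys of rats 1 to 4 and at 131 to 272 in those of rats 5 to 8.

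Probe sets whose names mark a coding sequence, 386 of those tested, had a median difference of -0.16, with 11.9% apart and higher in rats 1 to 4 and 28.2% apart and lower. The 2082 probe sets built on reverse-complemented records had a median of 0.01, with 18.6% and 17.2%. Genes that were apart and higher in rats 1 to 4 had a median length of 23670.5 bases on the RefSeq annotation of GRCr8, against 18309 for genes apart and lower and 20142.5 for overlapping ones. The control signals, the Gapdh ratio and these probe set classes moved with the split, and their part in the gene differences was not tested.

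The right kidneys of the same rats showed the split too, and since they helped to choose it they are no separate check. In them 1884 of 5244 probe sets were apart (35.9%), 803 higher in rats 1 to 4 (15.3%) and 1081 lower (20.6%), and 121 were at least 2-fold apart (2.31%), 107 higher (2.04%) and 14 lower (0.267%). Of the 1876 apart in the left kidneys, 1181 (63.0%) were apart in the same direction in the right, which is 62.7% of the right ones, and 2 were apart in the opposite direction. All 71 probe sets at least 2-fold apart in the left kidneys had the same sign in the right and 62 were apart there. Gatm differed by 1.67 in the left and 1.74 in the right kidneys, Map3k1 by -1.29 and -1.24, and Crp by -1.04 and -0.17. Within the left kidneys, Gatm differed by 1.83 over the saline rats alone and by 1.52 over the ACTH and DEX rats.

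Whether the sets differed by the same amount in both kidneys was tested with limma on the right minus left change of each rat, with ACTH and DEX as terms for the treated kidneys. The change contains the left values that chose the split, so the test is not independent of that choice. No probe set of 5244 passed the adjusted threshold (0.0%). An unadjusted limma p below 0.05 was reached by 605, with the change greater in rats 1 to 4 in 433 and smaller in 172. Chance alone would give 262.2 on average. Probe sets of the same arrays can move together, so a count can lie far from that average, and nothing is read from the surplus. The smallest adjusted p of limma was 0.353. Trappc6b, a vesicle tethering factor gene, had the smallest p, with a change that was 0.63 ± 0.12 (SE) greater in rats 1 to 4. Eif3m (0.60 ± 0.13), a translation initiation factor gene, Papola (0.62 ± 0.14), which encodes a poly(A) polymerase, and Naa15 (0.54 ± 0.13), which encodes an acetyltransferase subunit, followed in the same direction.

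Akr1b1, the aldose reductase that makes sorbitol in the renal medulla, differed the other way. Its right minus left change was -1.02, -0.91, -0.96 and -0.42 in rats 1 to 4, against 1.44, 0.19, -0.68 and 0.75 in rats 5 to 8, a difference of -1.25 ± 0.28 (SE, limma adjusted p = 0.353). Every rat of the first set was negative and 3 of 4 in the second were positive. Fxyd4, of the collecting duct, had -1.12 ± 0.33 (limma adjusted p = 0.368) and was not among the 5 smallest p. Its change was -1.15, -0.47, -0.39 and -0.16 in rats 1 to 4, against 1.47, -0.08, -0.04 and 0.98 in rats 5 to 8. Crp (0.87 ± 0.21) and Hnmt (0.50 ± 0.13), named above, had smaller limma p and differed in the opposite direction. A p above the threshold does not show that the kidneys were alike.

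The circadian clock list shows how far the left kidneys vary inside a set. Of its 8 measured genes only Tef, a clock output transcription factor gene, was apart, lower in rats 1 to 4 (-0.50). Bhlhe40 (-1.01), Nr1d2 (0.67), Per2 (-0.25), Dbp (-0.21), Nr1d1 (0.19), Bmal1 (-0.07) and Hlf (-0.04) overlapped. Dbp, a clock output gene, read 441, 873, 296 and 158 in rats 1 to 4, against 428, 832, 480 and 195 in rats 5 to 8. Saline rat 2 was the highest and saline rat 4 the lowest of the first set, and saline rats 6 and 8 held the same places in the second.

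Bmal1, whose product drives Dbp and whose RNA peaks when that of Dbp is low, read 101, 47.6, 113 and 146 in rats 1 to 4, against 100, 68.3, 94.2 and 160 in rats 5 to 8. Rats 4 and 8 were highest and rats 2 and 6 lowest. Nr1d1, which represses Bmal1, was lowest in rats 4 (142) and 8 (100), with 274 to 328 in the other left kidneys. In the right kidneys rats 4 and 8 again had the lowest Dbp of their sets (184 and 217), the lowest Nr1d1 (180 and 148) and the highest Bmal1 (138 and 142). All these rats were of the saline group, and the pattern was seen in the values and not tested. Other clock genes did not all follow it. Nr1d2 was lowest in rats 4 and 8 of their sets in both kidneys. Per2 was lowest in rats 3 (41.7) and 8 (53.3) in the left kidneys and in rats 1 (32.9) and 5 (42.6) in the right. Bhlhe40 was lowest in rat 2 in both kidneys of the first set (64.4 and 75.4). Tef in the right kidneys of the second set was lowest in rat 5 (255).

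**Figure D5:**
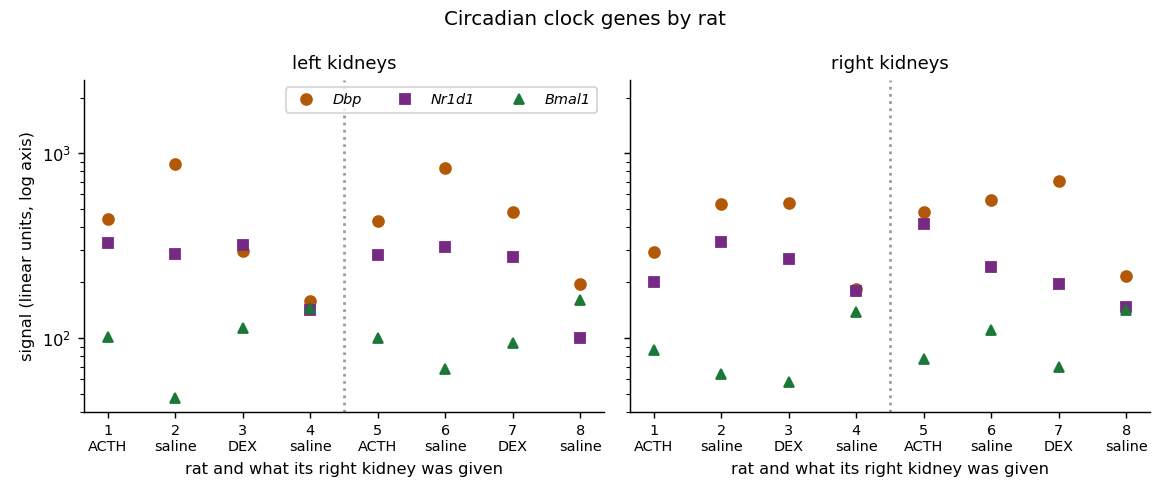
Signal (linear units, log axis) of Dbp, Nr1d1 and Bmal1 in the left and right kidney of each rat, with rats 1 to 4 left of rats 5 to 8 and the agent given to the right kidney under the rat number. Rats 4 and 8 have the lowest Dbp and Nr1d1 and the highest Bmal1 of their sets in both kidneys. Per2, Bhlhe40 and Tef, which do not wholly follow this order, are not shown.

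The promoters of 4 of these clock genes are shown for the motifs through which the clock is known to work, the E-box CACGTG, read by the Bmal1 and Clock proteins, and AGGTCA, the core site of Nr1d1 and the ROR receptors. Sequences are from RefSeq on GRCr8, 250 bases before to 50 after each start, with 5 starts for Dbp, Nr1d1, Per2 and Bmal1. Both strands were searched. The E-box occurred in 6.42% and AGGTCA in 16.2% of all 33469 promoters. The E-box was in 1 of the 5 windows, at -191 from the second Nr1d1 start, and AGGTCA in 1, at -15 from the Bmal1 start. No match in a window says only that these letters are not in it. The 2 windows with a match, chr1:176766078-176766377 on the plus strand for Bmal1 and chr10:84229405-84229704 on the minus strand for Nr1d1, read as follows, with the motif in capitals.
Bmal1: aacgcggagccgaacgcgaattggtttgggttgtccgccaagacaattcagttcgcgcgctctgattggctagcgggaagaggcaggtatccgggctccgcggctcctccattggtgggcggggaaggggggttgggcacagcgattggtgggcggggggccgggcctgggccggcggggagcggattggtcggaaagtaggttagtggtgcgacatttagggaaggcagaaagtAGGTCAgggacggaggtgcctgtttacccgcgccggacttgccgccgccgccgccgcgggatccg
Nr1d1, second start: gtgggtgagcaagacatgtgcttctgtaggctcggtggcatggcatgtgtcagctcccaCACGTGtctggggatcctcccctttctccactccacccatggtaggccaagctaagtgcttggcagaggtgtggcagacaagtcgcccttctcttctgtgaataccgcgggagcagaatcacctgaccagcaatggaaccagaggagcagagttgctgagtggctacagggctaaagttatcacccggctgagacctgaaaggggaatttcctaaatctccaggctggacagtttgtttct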

How the data were processed

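RNA of both kidneys of 8 rats was measured on 16 one-colour arrays. Tri-Reagent extraction, RNeasy clean-up and biotinylated cRNA targets are given per the labels' protocols. The deposited values are signal intensity on a linear scale, 1 per probe set, from 5.18 to 12664. What software or normalization the authors used is not given in the sources used here, so the scale is taken as deposited. The medians spanned 0.11 on the log2 scale, so no further normalization was applied. The number of arrays, not depth, limits the precision. The series labels do not say how the rats were housed or when arrays were run.

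Values became log2(value + 16). The 59 control probe sets were set aside and the 40% of the other 8740 with the lowest mean were left out, leaving 5244, with 4408 of them carrying 1 gene symbol for 3193 genes. Symbols came from the platform annotation (7006 probe sets with 1, 308 with several, 1426 with none), updated by gene ID. The members, gene lists and comparisons were chosen with earlier results of these data known. Named are the 15 largest differences in each direction among non-overlapping genes, the 2 most different members of each list or more where a list is described in full, a fixed set of genes of interest, and the 5 smallest p of the test. Probe sets at least 2-fold apart that do not represent their gene, opposed pairs and the clock pattern were picked after their values were seen.

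The right minus left change was tested with limma 3.58.1 in R 4.3.3 (two-sided, Benjamini-Hochberg over 5244 probe sets, threshold 0.05), with a term for each rat, the right kidney, ACTH, DEX and the right kidney in rats 1 to 4. Each fit had 4 residual degrees of freedom, with 7.40 more from the prior. The labels pair the kidneys of a rat, and the deviations of a rat's 2 kidneys from their set means correlated with r of 0.12 to 0.51 in the 8 rats. The fit was also run on simulated data with a known difference in some probe sets, independent noise and no rat effect. That run was a check of the code only, since it held no probe sets that move together. Figures and counts used Python 3.11.15.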

Additional observations from a re-analysis of the deposited data

Results flagged for a closer look

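In 9 of 202 sets of 4 left kidneys of named genes, 1 kidney lay far from the other 3, where chance gives about 1 in 20. The count is thus no higher than chance gives, and the 9 are listed as single values. Hmox1, the stress-induced heme oxygenase gene, read 2835 in ACTH rat 1, against 121 to 143 in the other rats 1 to 4, and its difference of 1.16 rests on that kidney. Hoxc4 read 932 in saline rat 8, against 133 to 171 in the other rats 5 to 8. Fgfr1 read 159 in rat 4, against 223 to 238, and Srsf11 130 in rat 3, against 176 to 187. Crp read 133 in rat 3, against 97.8 to 98.9, and Cd48 140 in rat 1, against 104 to 107. Saline rat 6 stood above the other rats 5 to 8 in 3 genes, with 528 against 297 to 326 for Cyp2c11, 843 against 713 to 726 for Hsd11b2 and 560 against 352 to 369 for Nfkbia.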

How the results depend on the processing

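The 30 genes with the largest left kidney differences kept their direction in all 420 combinations of gene and alternative. They were picked for having no overlap, so leaving out rats, another pseudocount or dropping the filter could not reverse it. The direction was thus open only under quantile normalization. The value stayed within 1 SD in 389 and moved further in 31, each of these under another pseudocount, quantile normalization or a subset of the rats. Leaving out 1 rat gave none of the 31, yet Hoxc4 went from -1.18 to -0.56 without rat 8. Of the 1876 probe sets apart, the count became 2856 with no filter on low values, where 8740 were counted, and 3319 over the saline rats or 3051 over the ACTH and DEX rats, where 2 against 2 values overlap less easily. The 71 probe sets at least 2-fold apart became 34 with a pseudocount of 64, which shrinks the differences of dim probe sets, and 135 over the saline rats. Leaving out each rat in turn gave 1998 to 2229 apart, where fewer values again overlap less easily, so a rise was built in. It gave 65 to 90 at least 2-fold apart. For the right minus left change, limma called 0 probe sets under every alternative run, also with no replicate block (333 at an unadjusted p under 0.05, smallest adjusted p 0.722). Without rat 8 the smallest limma adjusted p was 0.0501. Rats 1 to 4 and 5 to 8 share no rat, so the left kidney difference itself has no paired form. The sets differ in everything that was done to rats 1 to 4 and 5 to 8 separately, which cannot be told apart, and depth has no counterpart in array signals: dim probe sets are limited by background.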
